A study of Mus musculus with 6 samples.

Results

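The mitochondrial genome of the mouse was followed through RNA-seq of pancreatic islets that had lost or kept *Parn* in β cells. Its genes are the rows of the deposited expression values whose gene name starts with mt-, 37 of 55060 genes, and they divide into 13 protein genes, 2 rRNA genes and 22 tRNA genes. The coordinates, strand and length of 37 of 37 matched those of GENCODE M21 on build GRCm38. Islets of 3 Ctrl and 3 cKO samples were sequenced, from mice of 12 weeks. In cKO mice, a Cre recombinase driven by the *Ins2* promoter removes a floxed exon of *Parn*, so the deletion is limited to cells that use that promoter, and the Ctrl group is made of littermates, among them *Parn f/f* mice. Isolated islets also hold α, δ and PP cells, vessels and some exocrine tissue, which keep *Parn*. The labels do not state that the samples of a group came from separate animals, so p-values measure only the spread between these samples.

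Mitochondrial DNA is transcribed from both strands into long precursors, and the tRNAs that lie between the other genes are cut out of them, which frees the mRNAs and rRNAs. Most of the mRNAs then receive a short poly(A) tail from the polymerase MTPAP, which the mitochondrial deadenylase PDE12 can shorten, while PARN shortens poly(A) tails and trims the 3′ ends of RNAs outside mitochondria. The proteins encoded are core subunits of respiratory complexes I, III and IV and of ATP synthase (complex V), which β cells need to couple glucose oxidation to insulin release.

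The values are FPKM, which scale the fragments on a gene by its length and by library size. The reads behind them could be read back, since in each sample 100% of the values above 0 came out as whole reads within a tolerance of 0.01. Between 16289408 and 17944775 reads lay on genes in a sample. *Parn* itself had an FPKM of 6.64, 8.34 and 7.38 in Ctrl replicates 1, 2 and 3 and of 4.97, 4.61 and 6.15 in cKO replicates 1, 2 and 3, so each cKO sample lay below each Ctrl sample. All sample values below are given in this order.

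The samples carried the markers of islets. The summed FPKM of 10 β cell markers, led by *Ins2*, was 235964, 268775 and 276386 in Ctrl and 195405, 205244 and 217645 in cKO samples, and 0 of the 10 markers were at 0 throughout. Named after their values were seen, *Ins2* and *Iapp* lay in each cKO sample below each Ctrl sample, and *G6pc2* lay above. Exocrine RNA was present, with a summed FPKM of 10 acinar markers, led by *Ctrb1*, of 13230, 20916 and 7674 in Ctrl against 34772, 9482 and 29145 in cKO samples. The sum over 6 endothelial markers, led by *Plvap*, was 114, 100.8 and 113 in Ctrl against 123, 138 and 155 in cKO samples. *Plvap* carried this separation: without it the sums were 41.7, 43.01 and 44.5 against 42.5, 52.6 and 53.8 and overlapped, and 2 of the 6 markers, *Plvap* and *Cdh5*, lay above in each cKO sample. For 6 stromal markers, led by *Dcn*, it was 15.9, 7.96 and 11.9 against 13.3, 39.4 and 39.7. Ctrl replicate 1 stood apart in its leukocyte markers: the sum over 7 of them, led in FPKM by *Cd74* over the samples, was 878 there against 141 and 138 in the other Ctrl samples and 146 to 240 under cKO. The macrophage gene *Lyz2* reached an FPKM of 539 in Ctrl replicate 1, against 15.6 to 56.0 elsewhere. Ctrl replicate 1 was also the sample with the highest FPKM in 12 of the 13 mitochondrial protein genes, while over all genes tested it was highest in 22.1%. The log2 fold changes of the genes given in full are therefore also given without it, and the part of leukocytes, acinar, endothelial and stromal cells in them was not tested.

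Genes of the mitochondrial genome took 3.71%, 2.28% and 2.30% of the reads on genes in Ctrl and 1.67%, 1.86% and 2.27% in cKO samples. The groups did not overlap, but Ctrl replicate 2 and cKO replicate 3 lay so close that their 95% Wilson intervals, 2.27% to 2.29% and 2.26% to 2.28%, met. These intervals cover counting error only. The mean was 2.76% ± 0.819 in Ctrl and 1.93% ± 0.307 in cKO samples (SD, n = 3 each), a difference of -0.83 percentage points (exact two-sided permutation test, p = 0.1, the smallest that 3 against 3 samples can give). Without Ctrl replicate 1 the difference was -0.357 points. Among reads on genes other than *Ins1* and *Ins2*, with all samples, it was -1.30 points. The protein genes made up most of the share, with means of 2.71% ± 0.783 for Ctrl against 1.91% ± 0.303 for cKO (SD, n = 3). In bulk islets, fewer cells rich in mitochondrial RNA and less of this RNA per cell cannot be told apart. *Ins2*, whose mean share of reads was 21.4% ± 1.26 for Ctrl against 16.6% ± 1.6 for cKO (SD, n = 3), was also lower in each cKO sample, whereas the share of *Ins1* was 6.85% ± 0.545 against 7.09% ± 0.192 (SD, n = 3).

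**Figure D1:**
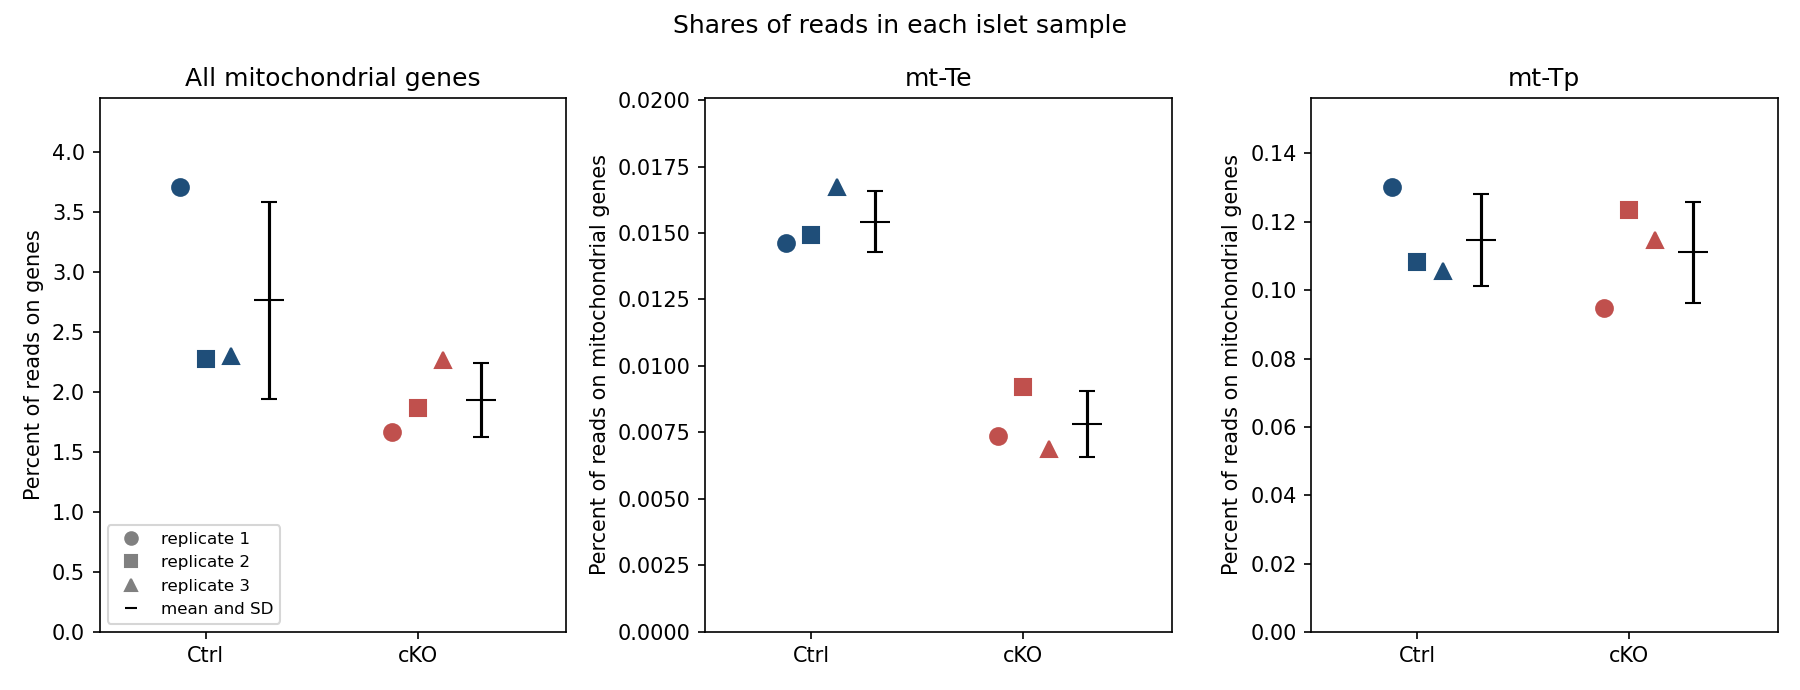
Percent of all reads on genes that lay on mitochondrial genes (left), and percent of the mitochondrial reads that lay on *mt-Te* (middle) and *mt-Tp* (right), in each Ctrl and cKO islet sample, with the mean and SD of 3 samples beside the points. For all mitochondrial genes Ctrl replicate 1, at 3.71%, stands above the other 5 samples, and the *mt-Te* share of the cKO samples lies below that of each Ctrl sample.

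Genotypes were then compared gene by gene with limma, for the 21211 genes whose mean FPKM reached 0.1, on log2(FPKM + 1), on which the change of genes at low FPKM comes out too small. Past an adjusted p of 0.05 there were 0 lower (0%) and 0 higher (0%) genes in cKO islets, the smallest adjusted p being 0.264. Past an unadjusted p of 0.05 there were 636 lower (3.0%) and 921 higher (4.34%) genes. With samples rescaled to their reads on genes, 386 of 1751 such genes were lower, and with limma's voom on the reads 328 of 1828, in which 2 genes passed the adjusted threshold. Of the 13 mitochondrial protein genes, 0 passed the adjusted threshold and 6 were lower past an unadjusted p of 0.05, namely *mt-Nd2*, *mt-Nd4l*, *mt-Nd5*, *mt-Nd6*, *mt-Co1* and *mt-Co3*. The 6 became 2 with an empirical Bayes trend, 2 after rescaling to reads on genes, 0 with the replicate block and 4 to 7 in the other alternatives that kept all samples. In 7 of the 13, the 3 cKO values were all under the lowest Ctrl value, which held for 6.03% of all genes tested, while the reverse held for 7.11% and for 0 of the 13. This count depends on the scaling. The library size behind the FPKM was 99.6%, 95.5% and 97.04% of the reads on genes in Ctrl and 102.9%, 106.7% and 100.8% in cKO samples. Per reads on genes, a count chosen after seeing the data, 2 of the 13 had no overlap, *mt-Co1* and *mt-Nd4l*, beside 3.21% of all genes, and the reverse held for 0 of the 13 and 11.0% of all genes. Scaled by the median ratio of genes, 7 of the 13 had none, beside 6.0% of all genes, with the reverse in 0 of the 13 and 7.16%. Per reads on genes other than *Ins1*, *Ins2* and the mitochondrial genes, 10 of the 13 had none, beside 7.04%, with the reverse in 0 of the 13 and 6.04%. Both scalings of this count were also chosen after seeing the data. The median log2 fold change of the 13 was -0.59, beside -0.01 over all genes tested. Of the 13, 13 were negative, beside 53.5% of all genes tested. Without Ctrl replicate 1 the median was -0.39, beside -0.0007 over all genes tested. In that fit 13 of 13 were again negative, and 0 passed an unadjusted p under 0.05. The number that passed the latter was also 0 without cKO replicate 1 and 1 without cKO replicate 2, but 9 without cKO replicate 3, the cKO sample nearest to Ctrl in its mitochondrial share. These genes are not separate observations, since those on the same strand are cut from shared precursors.

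Among the 7 genes of complex I, which passes electrons from NADH to ubiquinone, *mt-Nd1*, part of the ubiquinone site, had the highest FPKM. Its FPKM was 3993, 2841 and 2715 in Ctrl and 1898, 2108 and 2773 in cKO samples. The groups overlapped through cKO replicate 3, and the log2 fold change was -0.49 (SE 0.207, limma adjusted p = 0.689). *mt-Nd2*, *mt-Nd4* and *mt-Nd5* encode the proton-pumping subunits of the membrane arm. For *mt-Nd2* the FPKM was 2665, 1442 and 1681 in Ctrl and 1027, 1111 and 1438 in cKO samples, for a log2 fold change of -0.66 (SE 0.254, limma adjusted p = 0.652). *mt-Nd4* had 2360.2, 1429 and 1422 FPKM in Ctrl and 988, 1091 and 1389 in cKO samples (log2 fold change -0.56, SE 0.239, limma adjusted p = 0.692). *mt-Nd5* had 1867, 1271 and 1468 FPKM in Ctrl and 899, 1012 and 1256 in cKO samples (log2 fold change -0.54, SE 0.189, limma adjusted p = 0.616). In all 3 the genotypes parted by little: the lowest Ctrl sample was 1.003 times the highest cKO sample for *mt-Nd2*, 1.02 times for *mt-Nd4* and 1.01 times for *mt-Nd5*. Per reads on genes the genotypes overlapped in each of them. Without Ctrl replicate 1 the log2 fold changes were -0.32 for *mt-Nd1*, -0.40 for *mt-Nd2*, -0.32 for *mt-Nd4* and -0.39 for *mt-Nd5*.

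*mt-Nd6*, a membrane subunit and the protein gene on the minus strand, lay in the same range. It had an FPKM of 2116, 1245 and 1555 in Ctrl against 889.8, 1178 and 1134 in cKO samples, without overlap in FPKM but with overlap per reads on genes (log2 fold change -0.59, SE 0.218, limma adjusted p = 0.627). *mt-Nd3* and *mt-Nd4l*, small membrane subunits, had a far lower FPKM. *mt-Nd4l* had 33.8, 21.8 and 18.6 FPKM in Ctrl and 11.3, 14.1 and 17.7 in cKO samples (log2 fold change -0.72, SE 0.253, limma adjusted p = 0.616). *mt-Nd3* had 12.02, 5.11 and 6.74 FPKM in Ctrl and 4.74, 4.46 and 5.56 in cKO samples (log2 fold change -0.53, SE 0.275, limma adjusted p = 0.741). The *mt-Nd4l* values parted the genotypes, also per reads on genes, and the *mt-Nd3* values overlapped. Leaving out Ctrl replicate 1 gave -0.39 for *mt-Nd6*, -0.48 for *mt-Nd4l* and -0.22 for *mt-Nd3*. The *mt-Nd3* counts were small, between 27 and 73 reads in a sample.

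The gene of complex III, *mt-Cytb*, encodes cytochrome b, which holds the ubiquinol sites. Its FPKM was 6684, 4254 and 4154 in Ctrl and 2939, 3095 and 4229 in cKO samples, so that cKO replicate 3 lay above Ctrl replicate 3 (log2 fold change -0.54, SE 0.234, limma adjusted p = 0.693). In complex IV, which reduces oxygen, *mt-Co1* encodes the catalytic subunit and had the highest FPKM of the mitochondrial genes. The values of genes with copies on chromosome 1, described below, are uncertain, so this is a rank in FPKM only. *mt-Co1* had 9106, 6079 and 5696 FPKM in Ctrl and 4027, 4175 and 5399.7 in cKO samples, with no overlap in FPKM or per reads on genes (log2 fold change -0.60, SE 0.214, limma adjusted p = 0.622). *mt-Co2*, the subunit that takes electrons from cytochrome c, had 219, 84.9 and 60.5 FPKM in Ctrl and 47.4, 47.2 and 66.0 in cKO samples (log2 fold change -0.97, SE 0.462, limma adjusted p = 0.712). Ctrl replicate 1 held 3.02 times the mean of the other Ctrl samples in this gene, and without it the log2 fold change was -0.43. *mt-Co3*, a core subunit without electron carriers, had 77.0, 48.5 and 33.1 FPKM in Ctrl and 24.7, 23.9 and 32.8 in cKO samples (log2 fold change -0.87, SE 0.306, limma adjusted p = 0.616). Its lowest Ctrl and highest cKO values lay side by side without overlapping, and they overlapped per reads on genes. With Ctrl replicate 1 left out, the log2 fold change was -0.32 for *mt-Cytb*, -0.39 for *mt-Co1* and -0.56 for *mt-Co3*.

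Both genes of complex V had a low FPKM, in values that are uncertain because of the copies described below. *mt-Atp6*, a subunit of the proton channel, had 57.1, 31.9 and 29.7 FPKM in Ctrl and 23.99, 19.3 and 30.7 in cKO samples (log2 fold change -0.63, SE 0.286, limma adjusted p = 0.701). *mt-Atp8*, a small membrane subunit whose gene shares 43 bases with *mt-Atp6*, had 3.09, 4.05 and 2.06 FPKM in Ctrl and 1.67, 0.846 and 4.61 in cKO samples. The *mt-Atp8* values rest on 3 to 17 reads, overlap between the genotypes and gave a log2 fold change of -0.40 (SE 0.417, limma adjusted p = 0.858). With 1 sample left out this fold change ranged from -0.84, without cKO replicate 3, to -0.04, without cKO replicate 2. Without Ctrl replicate 1 it was -0.38, and that of *mt-Atp6* was -0.34. *mt-Atp8* was the protein gene in which Ctrl replicate 1 was not the highest sample.

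**Figure D2:**
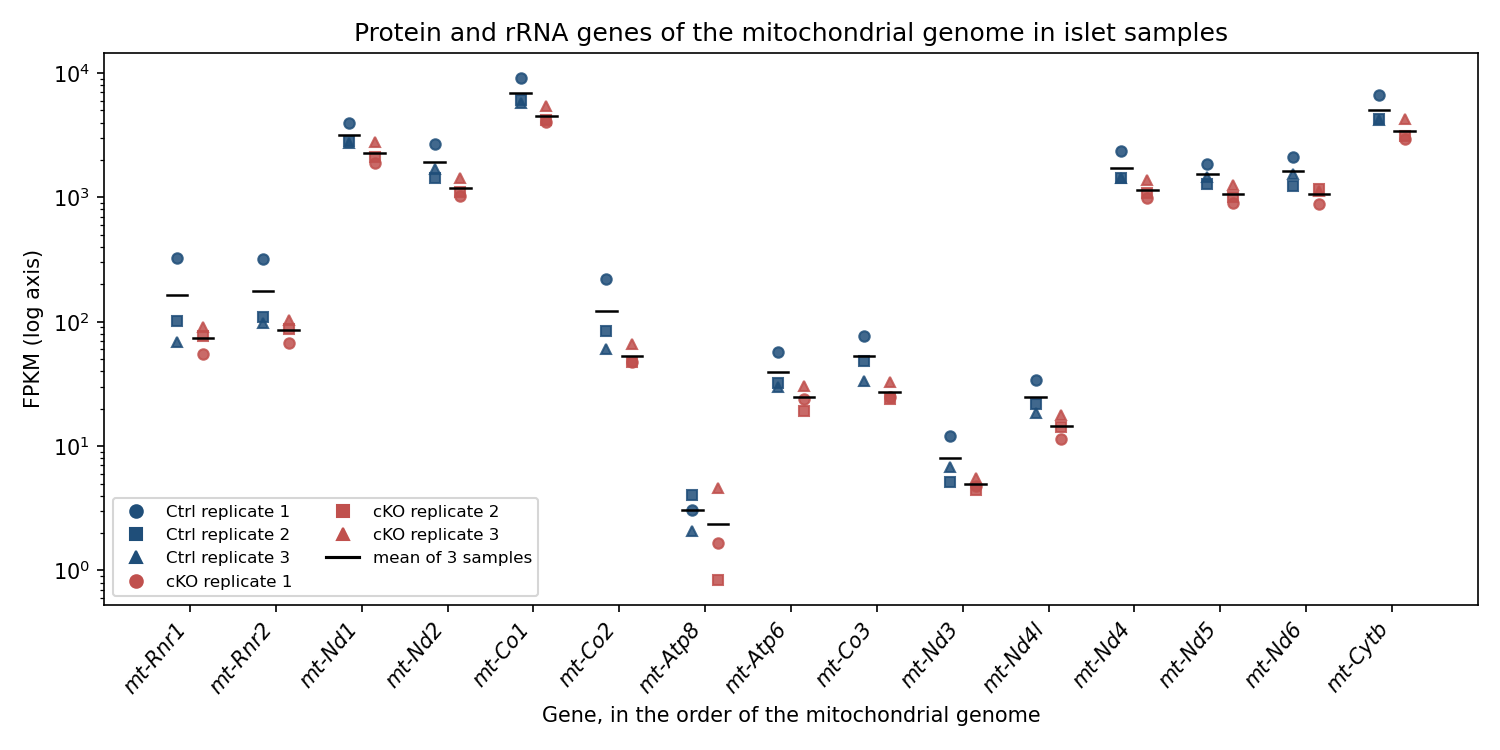
FPKM of the 13 protein and 2 rRNA genes in each islet sample on a log axis, in genome order, with black lines at the mean of 3 samples. Ctrl replicate 1 is the highest sample in 12 of the 13 protein genes, and the 6 genes from *mt-Co2* to *mt-Nd4l* lie below the other 7 in every sample.

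The protein genes divided by position into an abundant and a scarce group. The mean FPKM of 7 lay between 1295 and 5747, and that of the other 6 between 2.72 and 87.5, so the lowest of the 7 was 14.8 times the highest of the 6. The 6 follow each other on the genome, from *mt-Co2* to *mt-Nd4l*. Between 98.99% and 99.87% of the length of *mt-Co2*, *mt-Atp6*, *mt-Co3*, *mt-Nd3* and *mt-Nd4l* was found in annotated pseudogenes on chromosome 1. These matches had an identity of at least 98% over at least 50 bases. At that minimum length *mt-Atp8*, which lies between these genes, had 0% in such copies. A shorter match joined 43 bases of *mt-Atp8* to *Gm10925*, the copy of *mt-Atp6*, at an identity of 100%. Of the 7 abundant genes, *mt-Co1* had 31.3% and *mt-Nd4* 63.6% of its length in such copies, and the other 5 had 0%. The 7 copies stand in the order of the mitochondrial genes on chr1:24611535-24616197 (GRCm38, minus strand), and their alignments span positions 6390 to 11042 of the mitochondrial genome. The alignments compared annotated transcripts, so sequence between the pseudogenes was not compared.

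Reads from a gene and from such a copy cannot be told apart where the sequences are the same, and how reads with more than 1 place were handled is not given in the sources used here. The values of *mt-Co2*, *mt-Atp6*, *mt-Co3*, *mt-Nd3* and *mt-Nd4l* are therefore uncertain, as are those of *mt-Co1* and *mt-Nd4* over part of their length. For *mt-Atp8* this holds over at least the 43 bases found in *Gm10925*. The rest of *mt-Atp8* falls between the pseudogenes, where the sequence was not compared, so its value is uncertain too. The part of the copies in these levels was not tested. The mean FPKM of *mt-Co2* was 87.5 and that of its copy *Gm28661* 44.4, and for *mt-Nd3* and its copy *Gm28438* the means were 6.44 and 22.4. Past an unadjusted p of 0.05, 5 of the 7 copies were lower (3.0% of all genes), 0 passed the adjusted threshold of limma and 3 had no overlap (6.03% of all genes). Their 7 log2 fold changes were negative, with a median of -0.59. *Gm28437*, the copy of *mt-Co3*, had 43.6, 33.9 and 33.4 FPKM in Ctrl and 20.2, 19.7 and 24.1 in cKO samples, a wider gap between the genotypes than in *mt-Co3* (log2 fold change -0.76, SE 0.144, limma adjusted p = 0.392).

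**Figure D3:**
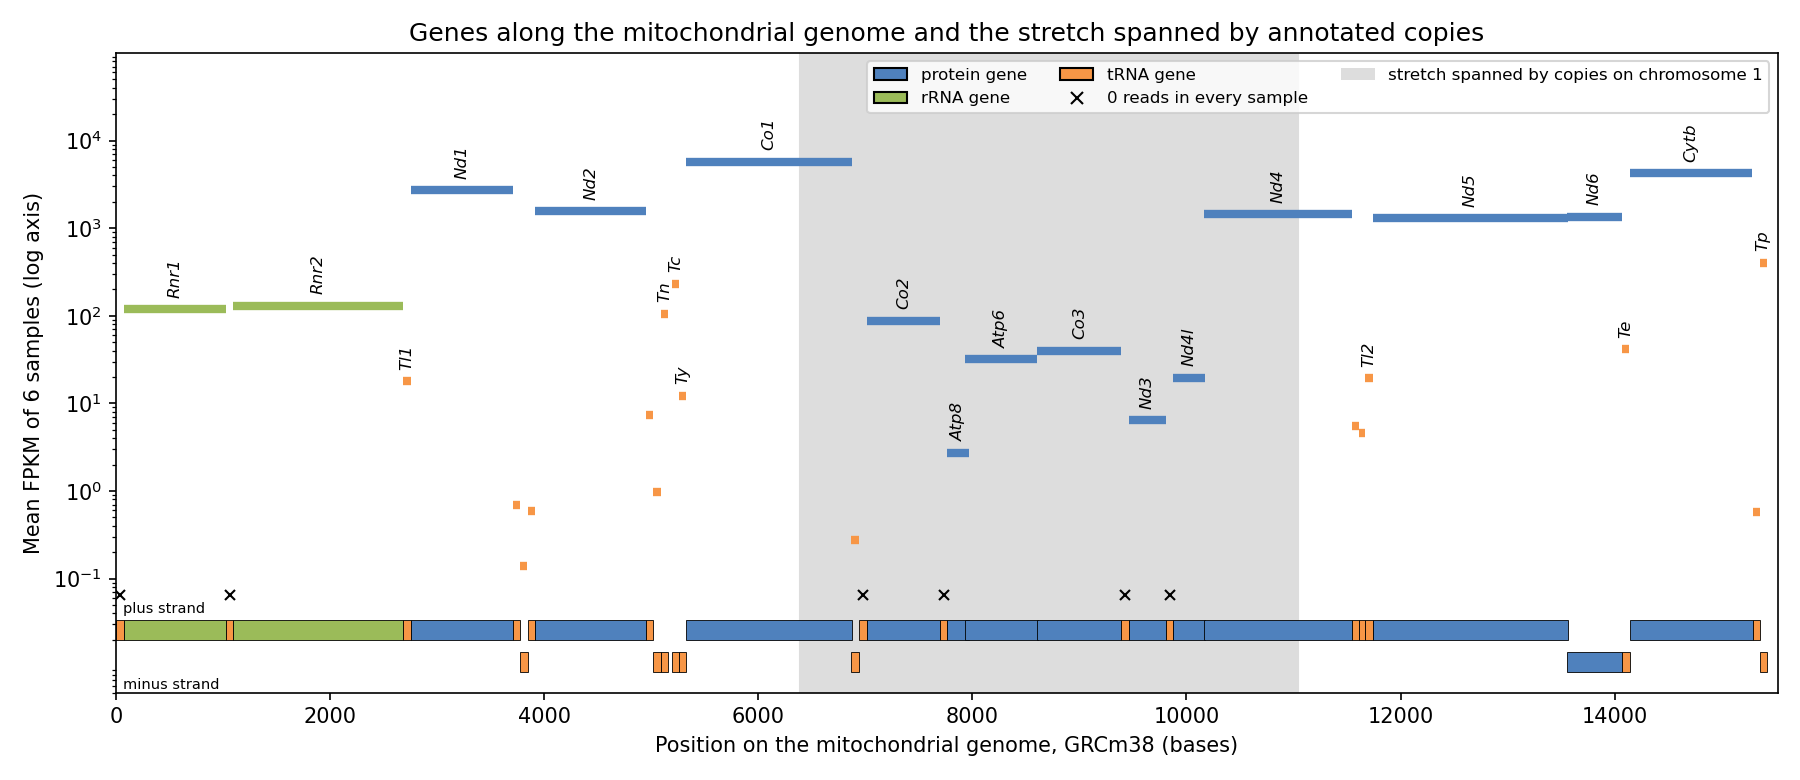
Mean FPKM over 6 samples (log axis) of each gene along the mitochondrial genome, with the genes of the plus and minus strand drawn at the foot and crosses at genes with 0 reads. The grey stretch, from 6390 to 11042, is the one spanned by annotated copies on chromosome 1, and the 6 scarce protein genes lie within it.

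The rRNA genes encode the RNAs of the small and large subunit of the mitochondrial ribosome. The libraries were made with a SMARTER mRNA kit, and how well it recovers rRNAs and tRNAs was not tested. *mt-Rnr1*, of the small subunit, had an FPKM of 326, 102 and 68.3 in Ctrl against 55.1, 76.8 and 91.2 in cKO samples. *mt-Rnr2*, of the large subunit, had 318, 110.1 and 97.2 FPKM in Ctrl and 68.1, 86.6 and 104 in cKO samples. In both genes Ctrl replicate 1 stood far above the other 5 samples, at 3.83 and 3.07 times the mean of the other Ctrl samples, and these overlapped with the cKO samples. The log2 fold changes were -0.84 (SE 0.563, limma adjusted p = 0.819) for *mt-Rnr1* and -0.82 (SE 0.457, limma adjusted p = 0.767) for *mt-Rnr2*, and without Ctrl replicate 1 they were -0.19 and -0.28. Reads on the rRNA genes were 0.0224, 0.0115 and 0.00934 of those on the protein genes in Ctrl and 0.01002, 0.0122 and 0.0113 in cKO samples. On the log2 scale this ratio differed by -0.27 (exact two-sided permutation test, p = 0.8). Without Ctrl replicate 1, an alternative chosen after seeing the data, its sign turned, at 0.10.

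The 22 tRNA genes are 59 to 75 bases long, and few reads lay on them. In libraries from an mRNA kit, these reads are not a measure of mature tRNA. Reads from a mature tRNA and from a precursor cannot be told apart in these values. Of the 22, 6 had 0 reads in every sample, namely *mt-Tf*, *mt-Tv*, *mt-Td*, *mt-Tk*, *mt-Tg* and *mt-Tr*, which allows an FPKM of up to 2.37 to 2.93 at 3 reads. *mt-Td*, *mt-Tk*, *mt-Tg* and *mt-Tr* lie within positions 6390 to 11042, the stretch spanned by the copies on chromosome 1. Sequence between the pseudogenes was not compared, and how reads with more than 1 place were handled is not given. For these genes, 0 reads may therefore not mean that the RNA was absent. A further 9 had between 0 and 14 reads in a sample, and 7 had at least 10 reads in at least 3 samples. Of these 7, 5 are encoded on the minus strand, which holds 8 of the 22 tRNA genes. Among the 16 tRNA genes tested, 2 were lower at an unadjusted p under 0.05, *mt-Te* and *mt-Tm*, beside 3.0% of all genes, and 0 were higher. *mt-Tm*, which reads methionine codons, rests on 2, 2 and 0 reads in Ctrl and 0 in each cKO sample, met the FPKM filter through its Ctrl reads and passed in 7 of 15 alternative fits, so nothing is read from its call or from the count of 2. The cKO values lay under the lowest Ctrl value in 1 of the 16 (6.25%), *mt-Te*, beside 6.03% of all genes. The median log2 fold change was -0.60, with 3 of the 16 positive, and -0.31 without Ctrl replicate 1. Like *mt-Tm*, *mt-Tq* and *mt-Tt* had reads in Ctrl samples only, and *mt-Ts1* had them in cKO replicate 2 only. These genes met the FPKM filter through the group with reads, which fixed their signs. Nothing is therefore read from the median or the number of positive genes.

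The tRNA genes with most reads were *mt-Tp*, for proline, *mt-Tc*, for cysteine, and *mt-Tn*, for asparagine. *mt-Tp* had 846, 406 and 416 reads in Ctrl and 270, 375 and 467 in cKO samples, for an FPKM of 724, 385 and 373 against 229, 322 and 385 (log2 fold change -0.62, SE 0.312, limma adjusted p = 0.726). *mt-Tc* had an FPKM of 389.9, 251 and 197 in Ctrl against 139.7, 257 and 158 in cKO samples (log2 fold change -0.58, SE 0.322, limma adjusted p = 0.760). *mt-Tn* had 207, 105 and 86.4 FPKM in Ctrl and 61.7, 106 and 71.6 in cKO samples (log2 fold change -0.66, SE 0.361, limma adjusted p = 0.759). The genotypes overlapped in all 3, and Ctrl replicate 1 was the highest sample in each. Without it the log2 fold changes were -0.31, -0.32 and -0.29.

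Of the rest, *mt-Tl1*, for leucine, had 29.8, 19.5 and 18.4 FPKM in Ctrl and 8.35, 19.9 and 11.8 in cKO samples (log2 fold change -0.76, SE 0.326, limma adjusted p = 0.692). *mt-Tl2*, the other leucine tRNA, had 46.0, 14.3 and 8.47 FPKM in Ctrl and 4.81, 11.3 and 31.2 in cKO samples (log2 fold change -0.52, SE 0.788, limma adjusted p = 0.908). *mt-Ty*, for tyrosine, had 23.95, 7.59 and 17.0 FPKM in Ctrl and 11.9, 2.58 and 10.7 in cKO samples (log2 fold change -0.95, SE 0.600, limma adjusted p = 0.810). The values of these genes overlapped between the genotypes. Leaving out 1 sample moved the log2 fold change of *mt-Tl1* between -1.08 and -0.49 and that of *mt-Ty* between -1.38 and -0.35, and without Ctrl replicate 1 they were -0.56 and -0.61. In *mt-Tl2* the sign of the log2 fold change turned without Ctrl replicate 1 (0.13) or without cKO replicate 1 (0.07).

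*mt-Te*, which carries glutamate and lies between *mt-Nd6* and *mt-Cytb* on the minus strand, had the most negative log2 fold change of the 31 mitochondrial genes tested. It had 95, 56 and 66 reads in Ctrl and 21, 28 and 28 in cKO samples. Its FPKM was 78.9, 51.6 and 57.5 in Ctrl, a mean of 62.7 ± 14.4 (SD, n = 3), and 17.3, 23.3 and 22.4 in cKO, a mean of 21.03 ± 3.24 (SD, n = 3). The lowest Ctrl sample was 2.21 times the highest cKO sample, where this ratio was at most 1.06 in the 7 protein genes without overlap. The log2 fold change was -1.52 (SE 0.194, limma adjusted p = 0.271), the gene with rank 9 of the 21211 by unadjusted p. It passed an unadjusted p under 0.05 in 16 of 16 alternative fits, in which its adjusted p ranged from 0.136 to 0.676, and with 1 sample left out its log2 fold change lay between -1.64 and -1.34, the latter without Ctrl replicate 1. Its genotypes also parted per reads on genes. At an adjusted p under 0.05 the difference was not detected.

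Within the mitochondrial reads, *mt-Co1* and *mt-Cytb* together held between 57.2% and 59.7% of them in each sample, and the 7 abundant protein genes between 96.8% and 98.5%. For those 7 the highest share in a sample was 1.06 to 1.34 times the lowest. Some scarcer genes varied more, as *mt-Rnr1*, with 0.835% in Ctrl replicate 1 and 0.275% in Ctrl replicate 3, and *mt-Co2*, with 0.403% and 0.174%. The share of *mt-Te* did not overlap between the genotypes, which held for 1 of the 31 genes with reads (3.23%). Beside the 6.03% and 7.11% of all genes without overlap in FPKM, this count is not above background. The *mt-Te* share was 0.0146%, 0.0149% and 0.0167% in Ctrl and 0.00738%, 0.00923% and 0.00688% in cKO samples, where the 95% Wilson intervals of some Ctrl and cKO samples met, as between 0.0115% to 0.0194% in Ctrl replicate 2 and 0.00638% to 0.0133% in cKO replicate 2. The ratio of *mt-Te* to its neighbour *mt-Nd6* in FPKM was chosen after its values were seen, so no test is given for it. It was 0.0373, 0.0415 and 0.0370 in Ctrl and 0.0195, 0.0198 and 0.0198 in cKO samples, a difference of -0.97 on the log2 scale that lay between -0.998 and -0.916 with 1 sample left out.

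The sequences of *mt-Te* and of the 3 tRNA genes with most reads are shown as examples of the tRNA genes given in full. They are the GENCODE M21 transcripts of build GRCm38, from the minus strand at chrM:14071-14139 for *mt-Te*, chrM:15356-15422 for *mt-Tp*, chrM:5192-5257 for *mt-Tc* and chrM:5089-5159 for *mt-Tn*, with the anticodon in capitals.
mt-Te: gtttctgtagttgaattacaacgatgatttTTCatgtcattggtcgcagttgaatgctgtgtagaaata
mt-Tp: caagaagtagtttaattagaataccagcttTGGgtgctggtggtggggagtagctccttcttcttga
mt-Tc: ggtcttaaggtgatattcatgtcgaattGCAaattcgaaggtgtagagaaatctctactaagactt
mt-Tn: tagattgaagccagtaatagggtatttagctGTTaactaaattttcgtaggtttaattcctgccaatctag

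Whether counting used strand is not given in the sources used here, so reads from the opposite strands of 1 locus cannot be told apart, and comparing *mt-Nd6* with the other protein genes compares loci. The FPKM of *mt-Nd6* was 0.938, 0.853 and 1.08 times the mean of the other 12 protein genes in Ctrl and 0.898, 1.11 and 0.818 times in cKO samples. The groups overlapped, with a log2 difference of -0.03 (exact two-sided permutation test, p = 0.8). The mean of the other 12 includes the 6 scarce genes from *mt-Co2* to *mt-Nd4l*, whose values are uncertain. The size of the ratio is therefore not read as a balance between the strands. *mt-Nd6* shares 14 bases with *mt-Nd5* on the other strand.

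The respiratory complexes also contain subunits encoded in the nucleus, of which 74 were followed. The summed FPKM of the 13 mitochondrial protein genes was 6.68, 4.05 and 4.70 times that of the 74 in Ctrl and 3.37, 3.22 and 4.31 times in cKO samples. cKO replicate 3 lay above Ctrl replicate 2, and the log2 difference was -0.48 (exact two-sided permutation test, p = 0.2), or -0.28 without Ctrl replicate 1. The mitochondrial sum includes the genes whose values are uncertain because of copies on chromosome 1. Of the 74, 4 (5.41%) were lower and 0 higher at an unadjusted p under 0.05, beside 3.0% and 4.34% of all genes. In 7 (9.46%) the 3 cKO values lay under the lowest Ctrl value and in 3 (4.05%) above the highest, beside 6.03% and 7.11%. The median log2 fold change was -0.07. The 4 were *Atp5e* (log2 fold change -0.37, limma adjusted p = 0.566), *Atp5h* (-0.31, limma adjusted p = 0.664), *Uqcrh* (-0.28, limma adjusted p = 0.625) and *Ndufa6* (-0.29, limma adjusted p = 0.664), subunits of ATP synthase, of complex III and of complex I.

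Nuclear genes make and process mitochondrial RNA. Over 4 lists (transcription and DNA maintenance, RNA processing and tRNA maturation, mRNA stability with polyadenylation and decay, and regulators of biogenesis), 82 genes were tested, with 0 lower and 2 (2.44%) higher at an unadjusted p under 0.05, both under the 3.0% and 4.34% of all genes, and a median log2 fold change of -0.02. The lists had medians of -0.01, -0.07, -0.01 and -0.01 in this order. The 2 higher genes were *Top3a*, a topoisomerase that works on nuclear and mitochondrial DNA, with an FPKM of 1.15, 1.49 and 1.503 in Ctrl against 1.89, 2.08 and 1.95 in cKO samples, and *Pparg*, a nuclear receptor of lipid metabolism. For *Pparg* the FPKM was 2.13, 2.75 and 2.52 in Ctrl and 3.26, 3.37 and 3.84 in cKO samples (log2 fold change 0.37, limma adjusted p = 0.550).

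Of the core factors, *Polrmt*, the mitochondrial RNA polymerase, had an FPKM of 5.15, 5.43 and 4.73 in Ctrl against 5.38, 5.30 and 3.94 in cKO samples. *Tfam*, which packs the DNA and starts transcription, had 8.08, 6.83 and 6.49 FPKM in Ctrl and 6.85, 7.46 and 6.98 in cKO samples. *Mtpap*, the poly(A) polymerase, had 6.36, 5.37 and 6.53 FPKM in Ctrl and 6.40, 5.58 and 5.94 in cKO samples. In each of these the genotypes overlapped. *Pde12*, the deadenylase of mitochondria, had 2.54, 2.46 and 2.03 FPKM in Ctrl and 2.26, 1.96 and 1.76 in cKO samples (log2 fold change -0.16, SE 0.114, limma adjusted p = 0.825). *Lrpprc*, which stabilizes the mRNAs, *Pnpt1*, an exoribonuclease, *Elac2*, which cuts the 3′ ends of tRNAs, and *Trnt1*, which adds CCA to them, overlapped too. Over these 8 genes the log2 fold change lay between -0.16 and 0.05, and the limma adjusted p between 0.825 and 0.999.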

How the data were processed

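The authors deposited FPKM per gene and sample, and libraries were made from total RNA with a SMARTER mRNA kit. The build, GRCm38 (mm10), is that of the submitters' processing notes, and the aligner, counter and use of strand are not given in the sources used here. Members and gene lists were chosen with earlier results of these data known. From the FPKM values, log2(FPKM + 1) was fitted with limma 3.58.1 in R 4.3.3 wherever the mean FPKM of a gene reached 0.1, two-sided, with p-values adjusted by the method of Benjamini and Hochberg. The empirical Bayes step had no trend, because the trend raises the error of the most abundant genes. Shares and ratios were compared with exact two-sided permutation tests. Named genes are the mitochondrial genes (tRNA genes in full with at least 10 reads in at least 3 samples), *Parn*, *Ins1*, *Ins2*, 8 core factors, list genes at an unadjusted p under 0.05 and 7 nuclear copies. Of the listed symbols, 2 (*Prorp* and *Fastkd4*) were not matched, though *Tbrg4*, another name of *Fastkd4*, was. Copies were sought among GENCODE M21 transcripts with BLAST+ 2.17.0. Alternatives covered the pseudocount, filter, trend, weights, scaling, reads in place of FPKM, the replicate block and each sample left out. Python 3.11.15 and matplotlib 3.10.9 were used, and the code was tested on simulated data.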

Additional observations from a re-analysis of the deposited data

How the results depend on the processing

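The count of genes at a limma adjusted p under 0.05 over all genes was 0 in the main limma fit given above. It was 3 with a pseudocount of 0.1 (*Mir384*, *Gm24898* and *Gm17160*) and 2 with voom on the reads (*Chgb* and *Ehhadh*). With 1 sample left out it was 0 to 1, the 1 being *Phlda3* without Ctrl replicate 1. None of these is a mitochondrial gene. The number of mitochondrial protein genes at an unadjusted p under 0.05, 6 in the main fit, was 2 with an empirical Bayes trend and 2 after rescaling to the reads on genes. With 1 sample left out it was 0 to 9: 0 without Ctrl replicate 1 or cKO replicate 1, 1 without cKO replicate 2 and 9 without cKO replicate 3. The number with no overlap between the genotypes, 7 of 13 in FPKM (6.03% of all genes), was 2 per reads on genes (3.21%), 7 by the median ratio of genes (6.0%) and 10 per reads on genes other than *Ins1*, *Ins2* and the mitochondrial genes (7.04%), alternatives chosen after seeing the data. With the replicate block, the number at an unadjusted p under 0.05 was 0 of 13, and 0 genes passed the adjusted threshold. The labels state no pairing of same-numbered samples beyond the shared number. Across genes, the deviations of these pairs from the group means correlated at -0.171, -0.0219 and -0.0652. Between samples of different numbers the correlations ranged from -0.0775 to 0.13. With 3 samples a group, these values cannot tell whether a pairing exists. For the 22 mitochondrial genes given in full, 299 of the alternative log2 fold changes kept their sign and side of the unadjusted threshold, 41 no longer passed, 10 newly passed and 2 changed sign, those of *mt-Tl2* without Ctrl replicate 1 (0.13) and without cKO replicate 1 (0.071), with a range from -1.16 to 0.13 over the samples left out. Under each rescaling and with voom, 22 of the 22 were negative. The light-strand to heavy-strand ratio, -0.03 on the log2 scale, ranged from -0.152 to 0.0704 with 1 sample left out and was 0.064 without Ctrl replicate 3, 0.00276 without cKO replicate 1 and 0.0704 without cKO replicate 3. The ratio of rRNA to protein gene reads, -0.27 on the log2 scale, ranged from -0.528 to 0.104 with 1 sample left out, also chosen after seeing the data, and was 0.104 without Ctrl replicate 1. The share of reads and the mitochondrial to nuclear ratio were lower in cKO in each alternative run. The cause of these changes was not tested. With 3 samples a group an exact p cannot go below 0.1, and few reads limit the tRNA genes.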

Other observations

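Among the 82 nuclear genes of mitochondrial RNA and DNA upkeep, 5 (6.1%) had the 3 cKO values under the lowest Ctrl value and 6 (7.32%) had them above the highest, beside 6.03% and 7.11% of all genes tested. They were named after their values were seen. The lower ones were *Mterf3*, *Ssbp1*, *Gtpbp3*, *Nsun3* and *Slirp*, and the higher ones *Tk2*, *Top3a*, *Fastkd5*, *Grsf1*, *Pparg* and *Gabpb1*. *Slirp*, the partner of LRPPRC in holding mitochondrial mRNAs, had an FPKM of 0.849, 0.614 and 0.639 in Ctrl against 0.367, 0.593 and 0.445 in cKO samples (log2 fold change -0.21, limma adjusted p = 0.734). *Grsf1*, which binds RNA in mitochondrial granules, had 27.1, 28.2 and 28.1 FPKM in Ctrl and 30.2, 29.6 and 29.7 in cKO samples (log2 fold change 0.10, limma adjusted p = 0.825). *Mterf3*, of a family that binds mitochondrial DNA and ribosomes, had 5.78, 5.63 and 6.64 FPKM in Ctrl and 4.67, 4.67 and 5.39 in cKO samples (log2 fold change -0.25, limma adjusted p = 0.692). Of the genes named, 0 passed the adjusted threshold of limma.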
